A study of Homo sapiens with 8 samples.

Results

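HOX genes encode homeodomain transcription factors. The data set measured 38 listed protein-coding HOX genes, chosen by name across the 4 HOX clusters: 10 of HOXA, 10 of HOXB, 9 of HOXC and 9 of HOXD. They were 38 of 20503 genes that the arrays could name, and 42 of the 50599 probes measured them. The rule used names and no measured value, although the set was proposed with earlier results of these data known. In each cluster the genes lie side by side and are numbered from 1 to 13 by paralog, so that genes of the same number in different clusters descend from the same ancestor. In the embryo, low-numbered genes are used towards the head and high-numbered genes towards the tail, and adult cells keep a part of this pattern as a positional record. In the embryonic Muellerian duct, HOXA9, HOXA10, HOXA11 and HOXA13 mark the future oviduct, uterus, cervix and vagina in turn, and epithelial ovarian cancers are known to use HOX genes that the ovarian surface epithelium largely lacks. HOX proteins bind DNA together with TALE homeodomain partners of the PBX, MEIS and PKNOX families. Polycomb proteins keep HOX clusters silent and the MLL complexes keep them active.

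RNA of the ovarian cancer cell lines MDAH and SKOV3 was hybridized to 8 one-colour Agilent arrays, 1 sample per array, to compare cells silenced or not for SFPQ, an RNA- and DNA-binding splicing factor. There were 4 groups of 2 arrays. The control MDAH and control SKOV3 groups held cells that were not silenced, and the SFPQ-silenced MDAH and SFPQ-silenced SKOV3 groups held cells transduced with a short hairpin RNA, sh-SFPQ#2 on 1 array and sh-SFPQ#3 on the other. The sources differ on whether both controls of a line carry the control hairpin or 1 of them is parental. A hairpin is therefore represented by 1 array per line, and nothing says whether arrays of a group came from separate cultures. The p-values thus measure the spread between these samples, which may be technical. In the main fit this spread also holds the difference between the hairpins of a silenced group.

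Levels are log2 signals after subtraction of each array's 75th percentile, and they are compared only between arrays for the same probe. A probe was taken as detected in a group when the scanner software marked it well above background on both arrays. The 75th percentile of signal was 244 on the MDAH sh-SFPQ#3 array and between 387 and 496 on the others, and 47.7% to 57.0% of probes were well above background. Each line took its own row of 1 slide, with controls before silenced samples, so that position and group cannot be told apart. The epithelial genes EPCAM, KRT8 and KRT18 and the Muellerian factor PAX8 were detected on all 8 arrays, whereas the defining markers CD3E of T cells and LUM of fibroblasts were at background on all arrays and PECAM1 of endothelium on 7 of 8. The targeted gene was checked first. SFPQ stood at 3.64 and 3.91 on the control MDAH arrays and at 2.45 and 2.10 on the silenced ones, a difference of -1.50 ± 0.23 (SE) on the log2 scale (adjusted p = 0.033). In SKOV3 it stood at 4.84 and 4.66 against 3.01 and 2.48, a difference of -2.01 ± 0.23 (adjusted p = 0.030). No silenced array overlapped a control array of its line. Without the first or second control MDAH array, the adjusted p-values were 0.200 and 0.195 in MDAH and 0.115 and 0.113 in SKOV3.

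The upstream sequences of the genes on which the results turn are given here from RefSeq (GRCh38.p14), whose table held start sites of 20 of the 38 genes. Each run holds the 250 bases before an annotated start, 5′ to 3′ on the gene's own strand. HOXD3 is shown as the gene that fell with silencing, HOXA10 as the gene that differed between hairpins, with both of its annotated starts, and HOXC4 and HOXC5, which share 1 annotated start, for the HOXC cluster that differed between the lines. Capitals mark matches, on either strand, to TATAAA (the TATA box core), to CCAAT (the core bound by NF-Y) and to TGATTNAT (the joint PBX and HOX site).
HOXD3, chr2:176157057-176157306, plus strand: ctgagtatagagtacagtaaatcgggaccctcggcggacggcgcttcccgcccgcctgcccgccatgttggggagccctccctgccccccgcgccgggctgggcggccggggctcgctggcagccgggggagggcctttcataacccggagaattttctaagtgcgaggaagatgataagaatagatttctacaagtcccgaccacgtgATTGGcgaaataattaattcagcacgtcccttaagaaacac
HOXA10, upper start, chr7:27179862-27180111, minus strand: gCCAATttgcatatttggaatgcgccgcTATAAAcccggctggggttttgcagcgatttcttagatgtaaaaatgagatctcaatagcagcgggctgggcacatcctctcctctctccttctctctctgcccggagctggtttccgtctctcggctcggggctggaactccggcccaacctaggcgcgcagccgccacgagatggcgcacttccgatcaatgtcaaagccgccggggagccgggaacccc
HOXA10, lower start, chr7:27174321-27174570, minus strand: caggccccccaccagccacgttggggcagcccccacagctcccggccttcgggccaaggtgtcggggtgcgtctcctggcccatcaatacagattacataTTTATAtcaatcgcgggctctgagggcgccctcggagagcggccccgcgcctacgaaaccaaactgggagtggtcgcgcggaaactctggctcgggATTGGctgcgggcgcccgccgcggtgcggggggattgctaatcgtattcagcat
HOXC4 and HOXC5, chr12:54016638-54016887, plus strand: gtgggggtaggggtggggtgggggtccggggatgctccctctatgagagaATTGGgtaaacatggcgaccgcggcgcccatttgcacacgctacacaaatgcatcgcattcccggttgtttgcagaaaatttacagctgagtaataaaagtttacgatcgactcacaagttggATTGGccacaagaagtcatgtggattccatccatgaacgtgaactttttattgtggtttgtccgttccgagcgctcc
CCAAT was found in all 4 runs, and in 32% of the 34943 distinct windows of the same length in the table. TATAAA was found in both HOXA10 runs and in neither of the others, against 10.8% of all windows. TGATTNAT was in none of the 4, and in 2.49% of all windows. Over the 26 distinct windows of HOX genes, 17 held CCAAT, 5 held TATAAA and 2 held TGATTNAT. These windows held a median of 19.5 CG dinucleotides against 11 over all windows, with a GC content of 58.8% against 58.0%. A match describes the letters only.

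The first question was which HOX genes each line used. In the control MDAH cells 29 of the 38 genes were detected and in the control SKOV3 cells 22 were. All 10 HOXA genes were detected in MDAH, and 7 in SKOV3, where HOXA4, HOXA6 and HOXA11 were at background. HOXB was fuller in SKOV3: 9 of 10 genes were detected there, all but HOXB1, against 7 in MDAH, where HOXB1, HOXB3 and HOXB5 were at background. HOXC was the cluster with the widest gap, with 7 of 9 genes detected in MDAH and 1, HOXC9, in SKOV3. HOXD was detected for the same 5 genes in both lines, namely HOXD1, HOXD3, HOXD8, HOXD9 and HOXD13.

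**Figure D1:**
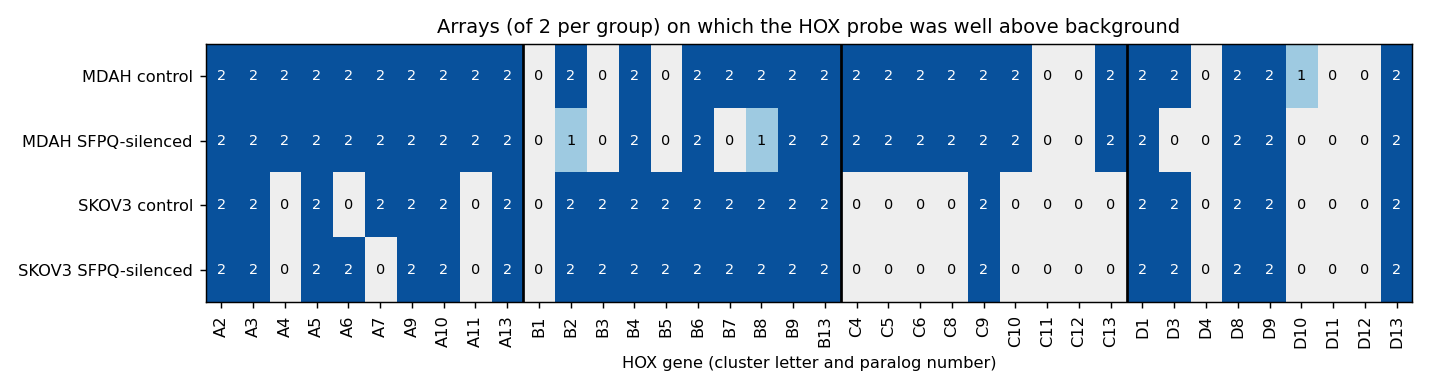
Number of arrays, of 2 per group, on which the probe of each HOX gene was well above background; columns are genes in cluster order and rows are the 4 groups. HOXC4 to HOXC8, HOXC10 and HOXC13 are dark in both MDAH rows and pale in both SKOV3 rows, and HOXB3 and HOXB5 show the opposite.

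Taken gene by gene, 20 of the 38 (52.6%) were detected in the controls of both lines, 9 (23.7%) in MDAH alone and 2 (5.26%) in SKOV3 alone. Over all 20503 genes these shares were 63.4%, 7.45% and 1.7%. A further 6 genes (15.8%) were detected on no control array of either line, beside 20.7% of all genes. All 6 were at background on the silenced arrays as well. They were HOXB1, HOXC11, HOXC12, HOXD4, HOXD11 and HOXD12, and HOXD10 was detected on 1 control MDAH array alone. Thus HOXD11 and HOXD12 were at background while HOXD13, at the end of the cluster, was detected on every array. Only 4 of the 38 genes had more than 1 probe, and each of them was already detected in both lines by its brightest probe. Counting any probe of a gene in place of the brightest one therefore could not change these numbers.

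The levels of the control cells gave the sizes. Of the 31 genes that could be tested, 26 differed between the lines, where 57.5% of all 15552 genes tested were called. Of the 26, 16 were higher in MDAH and 10 lower, against 26.8% and 30.7% of all genes. The remaining 7 genes were never detected on both arrays of a group. Genes at background in 1 line enter the test only because the other line is high, so the 20 genes detected on all 4 control arrays are given as well: 15 of them were called, 7 higher and 8 lower in MDAH, against 54.7% of the 12996 genes detected in the same way. Of all 38 genes without any filter, 28 were called, against 49.9%, and the 2 added, HOXC11 and HOXD4, were at background on every array.

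**Figure D2:**
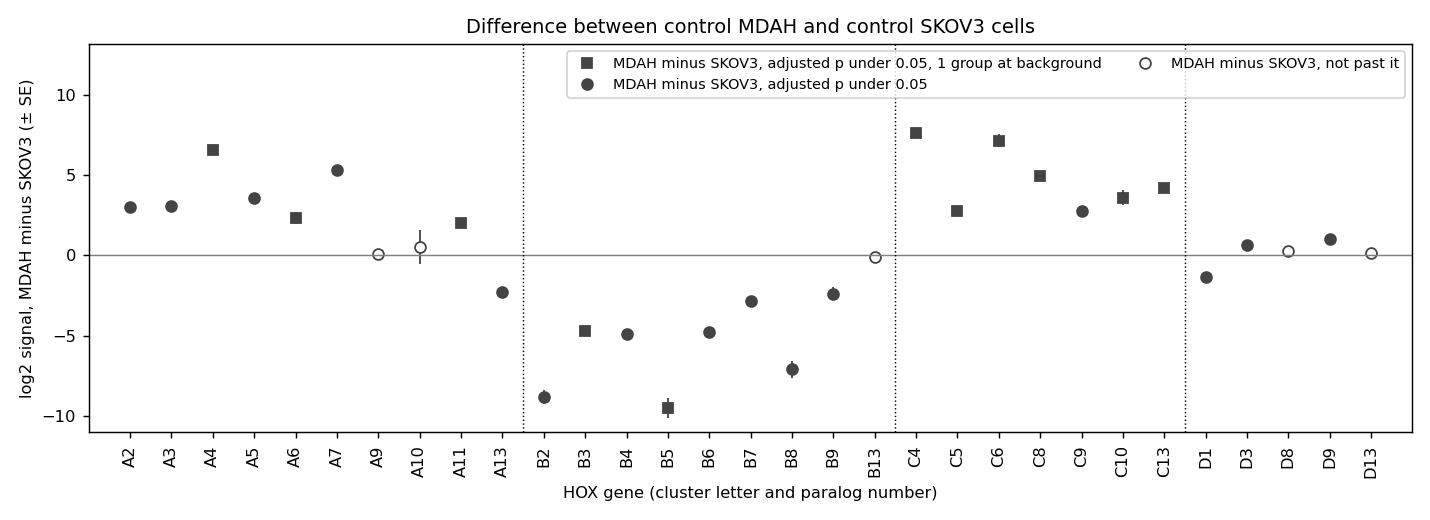
Difference in log2 signal between control MDAH and control SKOV3 cells for each tested HOX gene in cluster order; points are limma estimates from 2 arrays per line and bars are SE. HOXC genes lie between 2.75 and 7.61, HOXB genes between -9.51 and -0.13, and squares are genes at background in 1 line, whose true difference is only bounded.

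HOXB2 to HOXB9 were all lower in MDAH, and HOXB13, which lies apart from the rest of its cluster, was not called. HOXB5 was at background in MDAH at -4.56 and -5.67 and stood at 4.59 and 4.19 in SKOV3, at least 555-fold higher (adjusted p = 3.7e-05). HOXB2 stood at -3.52 and -2.98 in MDAH and at 5.65 and 5.46 in SKOV3, a difference of -8.81 ± 0.44 (adjusted p = 1.3e-05). A second HOXB2 probe had the same direction, with -3.40 and -3.70 against 1.95 and 1.89. These were the widest gaps of the cluster. HOXB8 stood at -3.47 and -4.10 against 3.19 and 3.43, a difference of -7.09 ± 0.52 (adjusted p = 6.3e-05). HOXB4, a gene used in blood stem cells, stood at -2.20 and -2.19 against 2.64 and 2.72, a difference of -4.88 ± 0.13 (adjusted p = 1.5e-06). HOXB6 stood at 2.23 and 2.25 against 7.05 and 7.03, a difference of -4.80 ± 0.19 (adjusted p = 5.2e-06). HOXB6 was therefore well detected in MDAH and still 27.8-fold lower there. HOXB3 was at background in MDAH, at -4.82 and -4.57 against 0.18 and -0.13, and measured 26.5-fold higher in SKOV3. Its MDAH values lay above the lowest signals well above background on those arrays, -4.87 and -4.89, so that this fold is the measured one. HOXB7 stood at -4.00 and -4.27 against -1.33 and -1.30, and HOXB9 at 2.73 and 2.08 against 5.08 and 4.50, differences of -2.82 ± 0.30 and -2.38 ± 0.39. The arrays of the lines did not overlap for any of HOXB2 to HOXB9. HOXB13, a prostate and hindgut factor, stood at -0.26 and -0.33 against -0.03 and -0.31 (difference -0.13 ± 0.17).

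HOXC ran the other way. All 7 tested HOXC genes were higher in MDAH, and 6 of them were at background on both control SKOV3 arrays, so that their folds are lower bounds. HOXC4 stood at 1.92 and 1.89 in MDAH and at -5.49 and -5.92 in SKOV3, at least 59.3-fold higher (adjusted p = 5.1e-06). HOXC6 stood at 1.42 and 1.74 against -6.22 and -4.90, at least 47.4-fold higher. HOXC8 stood at -0.03 and 0.03 against -4.73 and -5.10, at least 15.9-fold higher. The bounds were smaller for the dimmer probes. HOXC5, which shares its annotated start with HOXC4, stood at -3.23 and -3.09 against -6.00 and -5.82, at least 1.78-fold higher. HOXC10 stood at -2.0 and -1.81 against -6.31 and -4.69, at least 4.23-fold higher, and HOXC13, a hair and nail gene, at -1.97 and -2.0 against -6.27 and -6.10, at least 4.0-fold. HOXC9 was the exception that SKOV3 also used: it stood at 2.01 and 2.40 in MDAH and at -0.63 and -0.54 in SKOV3, a difference of 2.79 ± 0.26 (adjusted p = 0.00017).

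In HOXA, the genes HOXA2 to HOXA7 and HOXA11 were higher in MDAH, HOXA9 and HOXA10 were not called, and HOXA13 was lower. HOXA4 stood at 0.73 and 0.60 in MDAH and was at background in SKOV3 at -5.97 and -5.85, at least 25.1-fold higher in MDAH (adjusted p = 1.1e-05). HOXA7 stood at 1.87 and 1.59 against -3.64 and -3.58, a difference of 5.34 ± 0.19 (adjusted p = 3.8e-06). HOXA5 stood at 3.31 and 3.1 against -0.30 and -0.47, a difference of 3.59 ± 0.30. HOXA3 and HOXA2 were detected in both lines and were higher in MDAH by a similar size. HOXA3 stood at 4.32 and 4.17 against 1.46 and 0.89 (difference 3.07 ± 0.26), and HOXA2 at 1.75 and 1.67 against -1.06 and -1.49 (difference 2.99 ± 0.28). HOXA6 stood at -1.67 and -1.85 against a background of -4.14 and -4.03, at least 4.69-fold higher.

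Of the Muellerian-duct genes of HOXA, HOXA9 stood at -0.36 and -0.42 in MDAH and at -0.67 and -0.25 in SKOV3, with overlapping arrays (difference 0.07 ± 0.21). Its dimmer probe did not overlap, with 0.17 and 0.37 against -1.87 and -2.13, and with the mean of both probes HOXA9 was called. HOXA10 stood at 1.23 and 0.69 against 0.55 and 0.34 (difference 0.52 ± 1.05, the wide error coming from its silenced arrays). These control arrays did not overlap, and neither did those of its dimmer probe, at -0.56 and -0.76 against -0.99 and -1.0. HOXA11 stood at -3.03 and -3.60 in MDAH and was at background in SKOV3, at -5.40 and -5.20, at least 1.60-fold higher in MDAH (adjusted p = 0.0013). HOXA13 was the single HOXA gene lower in MDAH, at -2.30 and -3.10 against -0.09 and -0.70, a difference of -2.30 ± 0.36 (adjusted p = 0.0017).

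HOXD was the most alike between the lines. HOXD8 stood at 0.07 and -0.53 in MDAH and at -0.34 and -0.61 in SKOV3 (difference 0.25 ± 0.24), and HOXD13 at -0.15 and -0.12 against -0.13 and -0.43 (difference 0.14 ± 0.21), both with overlapping arrays and not called. HOXD9 was higher in MDAH, at -0.73 and -0.85 against -1.87 and -1.76 (difference 1.03 ± 0.18, adjusted p = 0.0027). HOXD1 was lower in MDAH, at -3.06 and -2.74 against -1.44 and -1.62 (difference -1.37 ± 0.27, adjusted p = 0.0049). HOXD3 stood at -1.28 and -1.46 against -1.97 and -2.07, a difference of 0.65 ± 0.18 (adjusted p = 0.021). This last call was lost with each array centred on its median (0.50, adjusted p = 0.102), with quantile normalization (0.52, adjusted p = 0.137), with normexp, with the authors' table, and without any of the 4 control arrays (adjusted p between 0.052 and 0.116).

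Of 20 listed transcripts of the clusters other than HOX mRNAs, noncoding apart from the coding gene PRAC1 among those measured, 9 had a probe and 7, all noncoding, passed the filter. HOXB-AS3, from the HOXB cluster, was lower in MDAH at -1.0 and -1.22 against 2.89 and 2.65 (difference -3.88 ± 0.22, adjusted p = 2.3e-05), the direction of HOXB2 to HOXB9. HOXA11-AS, antisense to HOXA11, stood at 0.51 and 1.07 in MDAH and was at background in SKOV3 at -4.85 and -6.15, at least 27.4-fold higher. HOTAIR, which lies between HOXC11 and HOXC12, was higher in MDAH by its brightest probe (difference 1.44), at 1.49 and 1.31 against -0.08 and 0.00. Of its 6 other probes, 5 were higher on both control MDAH arrays and at background on all SKOV3 arrays. The last overlapped, at -3.45 and -3.79 against -2.98 and -3.74, so that the probes of HOTAIR disagree. HAGLR and HOXD-AS2 of the HOXD cluster were detected on all 8 arrays and were not called, with differences of -0.28 and -0.24. HOTTIP and PRAC1 were at background on all arrays. With silencing none of the 7 was called in the limma fit, and 1 had an unadjusted p under 0.05 in the average.

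The main comparison of the study was SFPQ silencing. The number of HOX genes detected went from 29 to 25 in MDAH with silencing and stayed at 22 in SKOV3. In MDAH, HOXD3 and HOXB7 went from detected on both arrays to background on both, and HOXB2 and HOXB8 were detected with sh-SFPQ#2 alone. In SKOV3, HOXA7 went to background and HOXA6 came out of it. The MDAH changes went along with a lower share of all probes above background in silenced MDAH cells, 50.2% and 47.7% against 56.7% and 57.0%, and the part of this in them was not tested. In both lines HOXD3 was the single HOX gene that passed the test: 1 of 31 fell in MDAH, where 1.61% of all genes were called lower, and 1 of 31 fell in SKOV3, where 0.572% were. None rose, against 0.418% and 0.424% of all genes called higher. In either direction 2.03% and 0.997% of all genes were called.

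**Figure D3:**
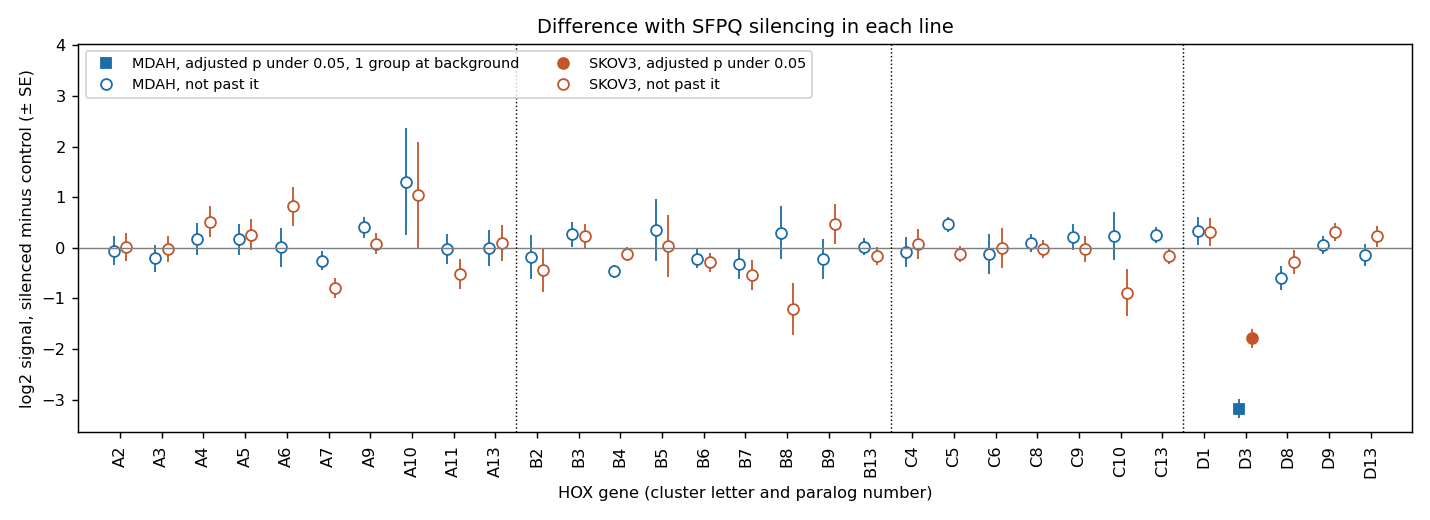
Difference in log2 signal between SFPQ-silenced and control cells for each tested HOX gene, in cluster order; blue is MDAH, orange SKOV3, bars are SE, filled symbols passed an adjusted p of 0.05 and the square marks a gene at background in silenced MDAH cells. HOXD3 is the filled gene in both lines, at -3.18 and -1.79, and HOXA10 has the widest errors.

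HOXD3, known from work on cell adhesion and angiogenesis, stood at -1.28 and -1.46 on the control MDAH arrays and at -4.33 and -4.76 on the silenced ones, which were not well above background. In SKOV3 it stood at -1.97 and -2.07 on the controls and at -3.80 and -3.81 on the silenced arrays, all 4 well above background. Silenced and control arrays lay apart in both lines, with either hairpin. The fall in MDAH was at least 6.44-fold (adjusted p = 0.0016), from a fitted difference of -3.18 ± 0.18. In SKOV3 it was -1.79 ± 0.18, or 3.46-fold (adjusted p = 0.021). HOXD3 was read by 1 probe alone. Its silenced SKOV3 values lay close to the lowest signals well above background on those arrays, -4.05 and -4.21. The average of both lines was -2.48 ± 0.13 (adjusted p = 0.0013), where 5.66% of all genes were called, 2.02% higher and 3.64% lower. The difference between the lines was -1.39 ± 0.26 (adjusted p = 0.151). The average and this difference take the silenced MDAH arrays at their background values, so that neither is an exact size. In the difference no HOX gene was called, with 2 at an unadjusted p under 0.05 and 0.0965% of all genes called, 0.0386% higher and 0.0579% lower. The SKOV3 call was lost when the 4 SKOV3 arrays were fitted alone (adjusted p = 0.077), and without the first or second control MDAH array or the first control SKOV3 array (adjusted p of 0.104, 0.104 and 0.066), while the difference stayed between -1.74 and -1.84. With the first control SKOV3 array left out, HOXC10 was called in its place, between arrays that were all at background in SKOV3.

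The neighbours of HOXD3 did not pass. HOXD8 stood at 0.07 and -0.53 against -0.67 and -0.97 in MDAH, and at -0.34 and -0.61 against -0.78 and -0.72 in SKOV3. In each line both silenced values were under both control values, with differences of -0.59 ± 0.24 (adjusted p = 0.205) and -0.28 ± 0.24 (adjusted p = 0.544). HOXD1 stood at -3.06 and -2.74 against -2.16 and -2.96 in MDAH and at -1.44 and -1.62 against -1.18 and -1.24 in SKOV3, an average of 0.33 ± 0.19 (adjusted p = 0.326). HOXD9 gave differences of 0.05 ± 0.18 in MDAH and 0.32 ± 0.18 in SKOV3 by its brighter probe, neither called. Its dimmer probe fell in MDAH from -3.28 and -3.46 to -4.26 and -4.03, the silenced arrays at background. That probe was at background on all SKOV3 arrays, so that the probes of HOXD9 disagree in MDAH. HAGLR and HOXD-AS2, antisense RNAs of the cluster, gave averages of 0.16 and -0.34, neither called. Outside the cluster, MTX2 and LNPK, the flanking genes of HOXD, gave averages of -0.16 and -0.32, also not called. HOXD4 was at background throughout, so that nothing can be said of its change.

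**Figure D4:**
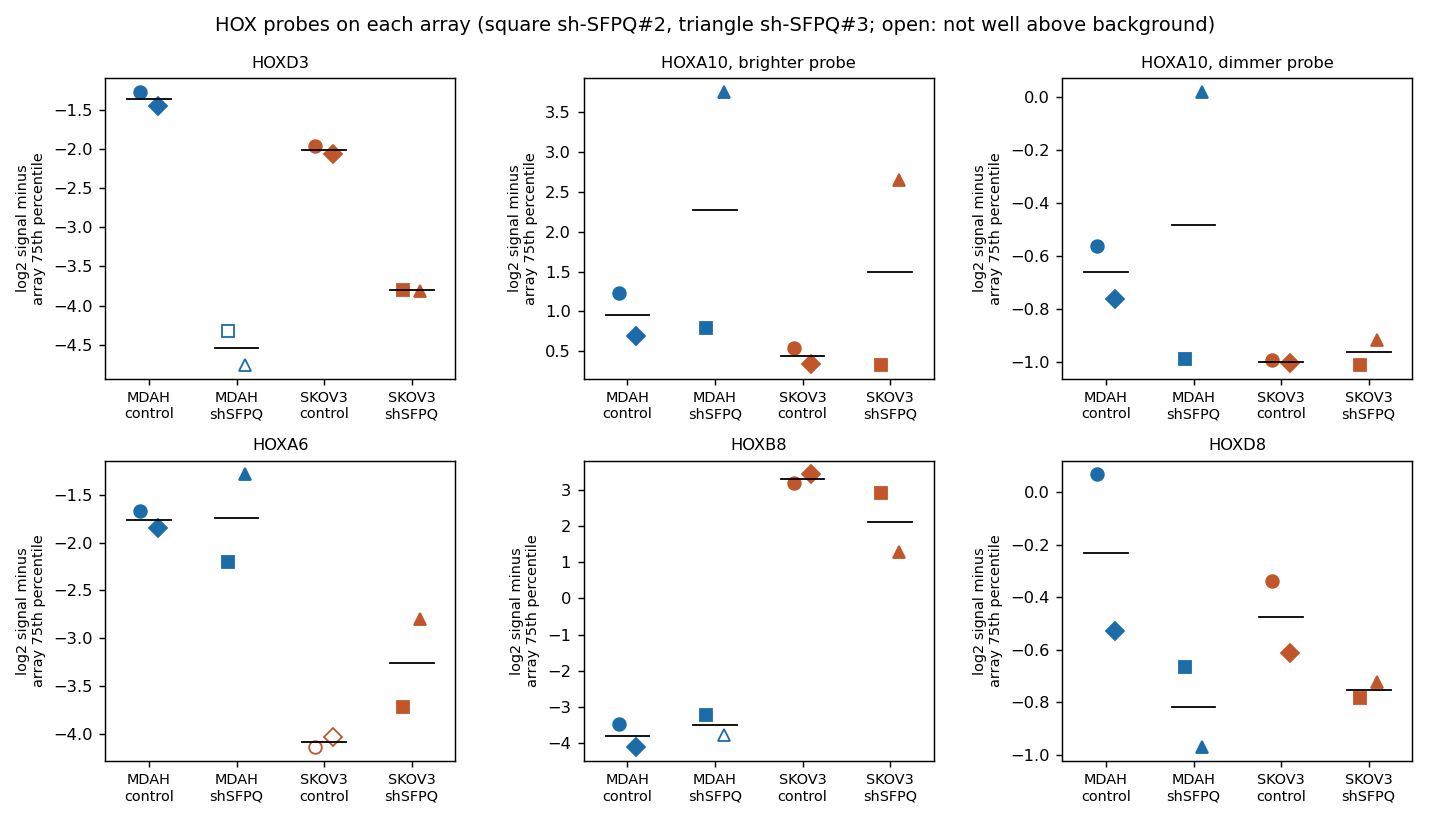
Log2 signal minus the array's 75th percentile on each of the 8 arrays, for 6 HOX probes, each with its own vertical scale; circles and diamonds are the controls, squares sh-SFPQ#2, triangles sh-SFPQ#3, open symbols were not well above background and bars are means of 2. HOXD3 is lower with both hairpins in both lines, whereas HOXA10 is higher with sh-SFPQ#3 alone.

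HOXA10 had the highest difference in both lines and passed in neither, and its values differed between the hairpins. In MDAH the controls stood at 1.23 and 0.69, the sh-SFPQ#2 array at 0.79 and the sh-SFPQ#3 array at 3.75. In SKOV3 it stood at 0.55 and 0.34, 0.33 and 2.65 in the same order. The sh-SFPQ#2 value lay at the level of the controls in both lines and the sh-SFPQ#3 value above them. The silencing differences were therefore 1.31 ± 1.05 (adjusted p = 0.483) and 1.05 ± 1.05 (adjusted p = 0.608). With the replicate number, which is that of the hairpin in silenced cells, as a replicate block, HOXA10 was called in MDAH (adjusted p = 0.042) and in the average (0.017) and not in SKOV3 (0.072). The dimmer HOXA10 probe stood at -0.56, -0.76, -0.99 and 0.02 in MDAH and at -0.99, -1.0, -1.01 and -0.92 in SKOV3, in the same order, so that its sh-SFPQ#3 value was the highest in each line, with a gap in SKOV3 that was a small part of that of the brighter probe. The probes of HOXA10 disagree in size.

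A direct comparison of the hairpins, chosen after these values were seen, fitted 1 term for sh-SFPQ#3 against sh-SFPQ#2 across both lines. It called HOXA10 (2.64 ± 0.25, adjusted p = 0.012) and HOXA6 (0.92 ± 0.14, adjusted p = 0.033), 2 of 31 tested, where 3.02% of all genes were called, 0.836% higher and 2.19% lower. HOXA6 stood at -2.21 with sh-SFPQ#2 and -1.29 with sh-SFPQ#3 in MDAH, and at -3.72 and -2.80 in SKOV3, against -1.67 and -1.85 and a background of -4.14 and -4.03 in the controls. Without the first or second control MDAH array no HOX gene was called (adjusted p of HOXA10 0.052 and 0.054). Without either silenced MDAH array none was called either (0.063 and 0.062), and without any 1 SKOV3 array HOXA10 alone was called. EVX2, a homeobox gene next to HOXD13, was outside the test because no group had it detected on both arrays. It stood at -5.27, -4.88, -5.05 and -0.83 in MDAH and at -5.46, -6.08, -6.23 and -1.80 in SKOV3, with the hairpins last and sh-SFPQ#2 before sh-SFPQ#3, and was well above background with sh-SFPQ#3 alone. SFPQ itself was lower with sh-SFPQ#3 by -0.44 ± 0.16 (adjusted p = 0.212). A hairpin cannot be told apart from its array within a line.

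Among HOXB genes, HOXB8 was the lowest in SKOV3 after HOXD3. The controls stood at 3.19 and 3.43, the sh-SFPQ#2 array at 2.91 and the sh-SFPQ#3 array at 1.29, a difference of -1.21 ± 0.52 (adjusted p = 0.266). Without the sh-SFPQ#2 array it was called (-2.01, adjusted p = 0.043). In MDAH HOXB8 stood at -3.47 and -4.10 against -3.21 and -3.76, so that the lines differed by 1.51 ± 0.73, the highest difference between lines and not called (adjusted p = 0.373). HOXB4 stood at -2.20 and -2.19 against -2.68 and -2.64 in MDAH, a difference of -0.47 ± 0.13 (adjusted p = 0.117). In SKOV3 HOXB4 stood at 2.64 and 2.72 against 2.56 and 2.55, and the average was -0.29 ± 0.09 (adjusted p = 0.107). HOXB9 stood at 5.08 and 4.50 against 5.30 and 5.22 in SKOV3 (0.47 ± 0.39, adjusted p = 0.538).

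None of the HOXC genes was called with silencing in the limma fit of all arrays, and 6 of the 7 tested were at background on every SKOV3 array, so that their change there was not measured. HOXC5 stood at -3.23 and -3.09 against -2.62 and -2.77 in MDAH (0.46 ± 0.16, adjusted p = 0.155), the second highest difference there among detected genes. HOXC10 differed between lines by 1.12 ± 0.66, with its SKOV3 arrays at background. In HOXA, HOXA7 stood at -3.64 and -3.58 against -4.19 and -4.62 in SKOV3, the silenced arrays at background, at least 1.44-fold lower (adjusted p = 0.111). The median difference of the 31 genes was 0.01 in MDAH and -0.02 in SKOV3, beside 0.10 and -0.04 over all genes tested. Both silenced arrays lay above both controls for 4 of 31 genes in MDAH and 6 in SKOV3, and below for 5 and 11. Over all genes these shares were 35.6% above and 21.4% below in MDAH, and 25.9% and 32.1% in SKOV3. Apart from HOXD3 no difference passed the test, and an unadjusted p under 0.05 was reached by 4 genes in MDAH and 2 in SKOV3.

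TALE partners were then examined, of which 7 of 8 considered here had a probe and were tested. In the average of both lines 1 of these 7, MEIS2, fell and none rose, beside 3.64% of all genes called lower. MEIS2 stood at -0.92 and -1.33 on the control MDAH arrays, at -2.91 with sh-SFPQ#2 and at -4.85 with sh-SFPQ#3. In SKOV3 it stood at -0.79 and -0.94, then -2.21 and -3.97. All silenced arrays were lower, more so with sh-SFPQ#3, and the average was -2.49 ± 0.52 (adjusted p = 0.046). The hairpin comparison called it too (-1.85 ± 0.18, adjusted p = 0.013). The average call was lost with median centring, with quantile normalization, without a filter, and without any control array or either sh-SFPQ#3 array (adjusted p between 0.076 and 0.178), and that of the hairpins without either control MDAH array (0.051 and 0.053) or any 1 silenced array (0.053 to 0.075).

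**Figure D5:**
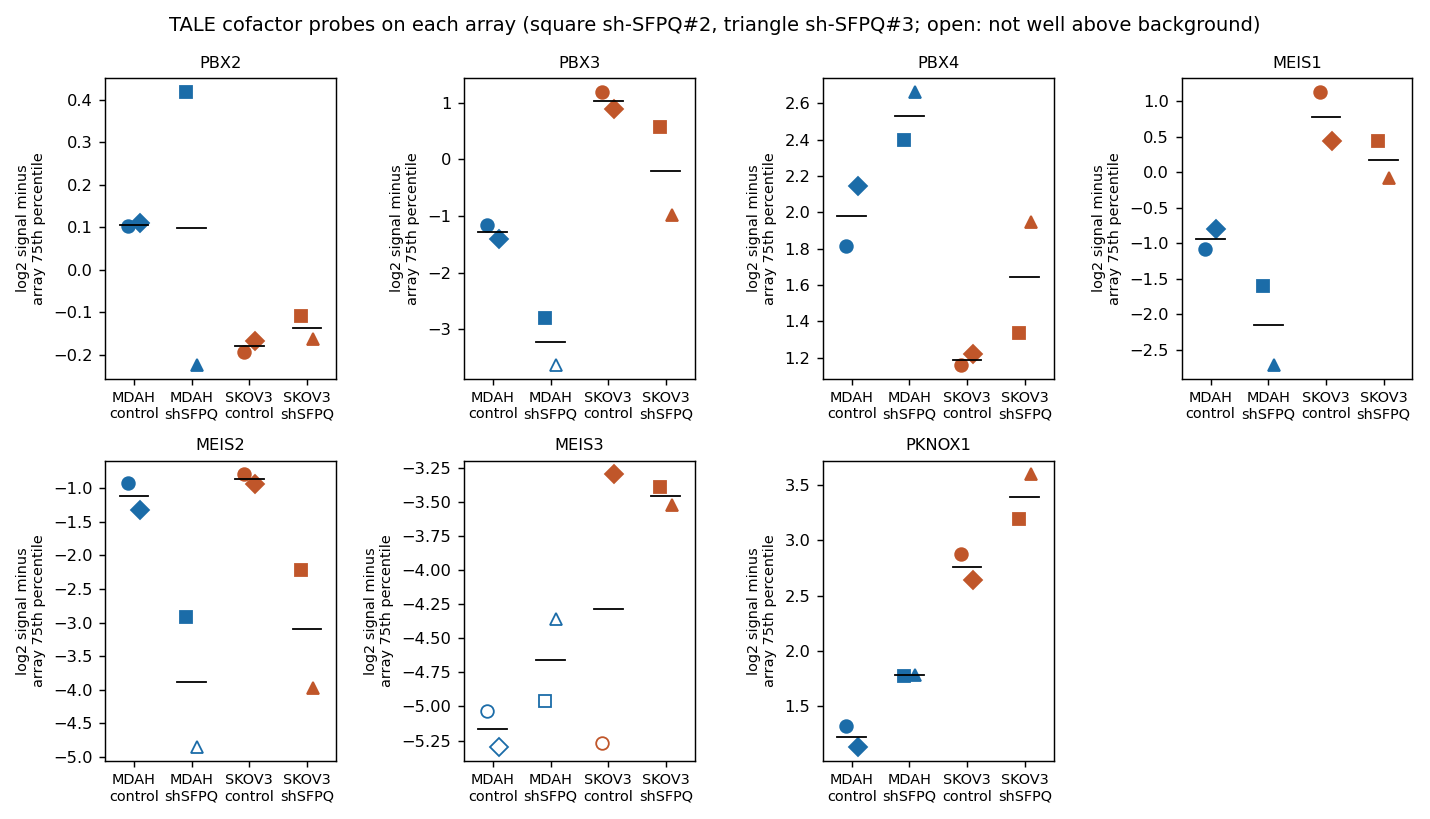
Log2 signal minus the array's 75th percentile on each of the 8 arrays for 7 TALE cofactor genes, each with its own vertical scale; circles and diamonds are the controls, squares sh-SFPQ#2, triangles sh-SFPQ#3, open symbols were not well above background and bars are means of 2. MEIS2 and PBX3 are lower on all silenced arrays of both lines, and PKNOX1 is higher on all of them.

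PBX3 had the direction of MEIS2 without passing. It stood at -1.17 and -1.40 against -2.81 and -3.63 in MDAH and at 1.19 and 0.89 against 0.57 and -0.99 in SKOV3, an average of -1.59 ± 0.36 (adjusted p = 0.053). MEIS1 gave an average of -0.91 ± 0.29 (adjusted p = 0.112). PKNOX1 was higher on every silenced array, at 1.77 and 1.78 against 1.32 and 1.13 in MDAH and 3.20 and 3.60 against 2.88 and 2.65 in SKOV3, an average of 0.60 ± 0.13 (adjusted p = 0.053). PBX2 gave 0.02 and PBX4 0.50, neither called. Between the control lines, PBX4 (0.79 ± 0.24) was higher in MDAH, whereas PBX3 (-2.32 ± 0.51), MEIS1 (-1.73 ± 0.41) and PKNOX1 (-1.54 ± 0.19) were lower there.

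Chromatin regulators of the clusters moved in few cases. Of 29 Polycomb genes tested, 2 fell in the average and none rose, beside 3.64% and 2.02% of all genes. YAF2, a partner of RING1 and RNF2, fell in MDAH from -0.96 and -0.82 to -1.91 and -1.98 (-1.05 ± 0.14, adjusted p = 0.023), and its average was -0.74 ± 0.10 (adjusted p = 0.018). EZH2, the methyltransferase that marks silent HOX clusters, stood at 3.03 and 3.15 against 2.16 and 2.28 in MDAH and at 3.14 and 2.81 against 2.38 and 2.75 in SKOV3, an average of -0.64 ± 0.14 (adjusted p = 0.047). PCGF2 had the highest average of the list (0.45, adjusted p = 0.060). Both average calls were lost without any 1 control array, that of EZH2 also without any 1 silenced array. Of 20 genes of the MLL complexes and the demethylases of the Polycomb mark none passed in the limma fit, with 5 at an unadjusted p under 0.05 in the average, where 5.66% of all genes were called. Their highest average was that of DOT1L (0.67, adjusted p = 0.053) and their lowest that of AFF1 (-0.59). Of 14 inputs from CDX factors and retinoic acid, RXRA, a retinoid receptor, fell on average from 1.76 and 1.66 to 1.12 and 1.07 in MDAH and from 2.87 and 2.65 to 2.32 and 2.08 in SKOV3 (-0.59 ± 0.11, adjusted p = 0.037). Without any 1 control array the RXRA call was lost (adjusted p between 0.079 and 0.157). The highest average among detected genes was that of RXRB (0.36, adjusted p = 0.109). Between the control lines, 7 of these 14 were called higher in MDAH and 4 lower, beside 26.8% and 30.7% of all genes. CDX2, an intestinal activator of HOX genes, was detected in MDAH and at background in SKOV3, at least 13.0-fold higher. The retinoid-binding protein CRABP1 was at background in MDAH and at least 90.4-fold higher in SKOV3. CRABP2 went the other way, higher in MDAH by 3.74 ± 0.20, and ALDH1A3 was also higher there, by 7.59 ± 0.49. Of 14 flanking genes of the clusters tested, none was called with silencing in the limma fit, with 3 at an unadjusted p under 0.05 in the average, where among genes detected on all arrays CALCOCO2 was the highest at 0.37 and HIBADH, beside HOXA, the lowest at -0.75. In the hairpin comparison HIBADH was lower with sh-SFPQ#3 (-0.99, adjusted p = 0.033), a call lost without any 1 of the 8 arrays (adjusted p between 0.065 and 0.126).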

How the data were processed

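Total RNA of 8 samples was labelled with Cy3 and hybridized to 1 array each. Per the file headers, the authors deposited each spot's processed, background-subtracted intensity from Agilent Feature Extraction (11.5.1.1 in the headers, 10.7.3.1 in the submitters' processing notes), without scaling between arrays. They also deposited a table of log2 values, whose steps are not given in the sources used here. Recomputed quantile-normalized log2 signals minus each probe's median matched it on every array (r above 0.999), with column medians between -0.03 and 0.01. Its direction and centring were read from this match, and it served as an alternative.

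Control spots and outlier spots (209 to 310 per array) were dropped and replicate spots were averaged. The log2 intensity of each array was then reduced by its 75th percentile. Probes were named through RefSeq accessions (28174 of 50599), and a gene was read by its brightest probe. A gene was tested if both arrays of at least 1 group were well above background. All groups were fitted together in R 4.3.3 with limma 3.58.1 (2 arrays per group, 4 residual and 2.69 prior degrees of freedom), with Benjamini-Hochberg adjustment over 15552 genes and a threshold of 0.05. Precision is limited by the number of arrays. Where a group was at background on both arrays, the fold is a lower bound against the lowest signal well above background on each array. Where the probe's own signal was higher than that, its own signal was used. Arrays were grouped by the sample labels. The comparisons were silencing in each line, its average, the difference between lines, the control lines and, added after the data were seen, the hairpins. The fit was tested on simulated data with 200 changed genes.

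Genes named are SFPQ, HOX genes past the threshold in a comparison, the 2 highest and 2 lowest in each silencing comparison among detected genes, the 2 highest and 2 lowest in the difference, and from the other lists genes past the threshold with silencing and the highest and lowest average. EVX2, HOXA6 and the other hairpin results were chosen after their values were seen. The differences between control lines given for the other lists fall outside this rule. The HOX genes and lists were chosen with earlier results of these data known. Among genes detected on all arrays, the epithelial averages ran from -0.15 (CLDN3) to 0.43 (CLDN4) and the leukocyte ones from -0.27 (PTPRC) to -0.0087 (CD14). CDH5 gave -0.02, PAX8 -0.05 and FOLR1 0.73. The epithelial, leukocyte and endothelial lists had no gene called with silencing. Of 7 Muellerian genes tested, 1 was called in the average, MUC16 (adjusted p = 0.040, although it was detected in silenced SKOV3 cells alone). Of 2 fibroblast genes tested, 1 was called, COL1A1 (average 1.18, adjusted p = 0.030). Both were higher, where 2.02% of all genes were called higher, and both calls were lost under several alternatives. Normexp was run on median pixel signals. Alternatives were other scalings, filters, probe rules and fits, and leaving out each array. Some genes are not reported here.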

Additional observations from a re-analysis of the deposited data

How the results depend on the processing

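Of the 11 main results under the alternatives, 137 values kept their call, 22 counts moved by more than 1.5 times and 16 values lost their call. For the other 73 results 1162 kept it, 109 lost it, 23 gained it and 16 changed sign. With the filter requiring detection on all 8 arrays, which takes HOXD3 out of the test, 0 HOX genes were called with silencing in MDAH, 0 in SKOV3 and 0 in the average, 10 of 15 between the control lines and 1 between hairpins. Without a filter 1 was called between hairpins. When the SKOV3 arrays were fitted alone, 0 were called there. The labels share numbers between the lines, but controls of the same number hardly deviated together (r = 0.078, shared hairpins r = 0.363, over 15552 genes), so the control numbers were not taken as pairs, whereas silenced arrays of the same number share a hairpin. With the number as a replicate block, 2 HOX genes were called in MDAH and 2 in the average (HOXA10 beside HOXD3), 1 in SKOV3, 0 in the difference and 26 between the lines. Leaving out 1 array at a time, the count ran from 0 to 2 in SKOV3 (0 without either control MDAH array, 2 without the sh-SFPQ#2 array of SKOV3, HOXB8 and HOXD3), from 1 to 2 in the average (HOXA7 was added without that array), from 0 to 1 in the difference (HOXD3, without the sh-SFPQ#2 array of MDAH), and from 0 to 1 between hairpins (0 without any 1 MDAH array).

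The SFPQ difference in MDAH was -1.39 with median centring (adjusted p = 0.061) and -1.50 without a filter (0.051) or with the MDAH arrays alone (0.054). In SKOV3 it was -2.01 without a filter (0.060) or with the SKOV3 arrays alone (0.107). Leaving out 1 array, SFPQ ran from -1.68 to -1.33 in MDAH, from -2.27 to -1.74 in SKOV3 and from -1.89 to -1.62 in the average. The HOXA10 difference ran from -0.17 to 2.79 in MDAH and from -0.11 to 2.21 in SKOV3, negative without the sh-SFPQ#3 array. Near 0, the average of CDH5 turned to 0.0184 with median centring, 0.03 with quantile normalization, 0.0094 with normexp and 0.0302 in the authors' table, and ran from -0.23 to 0.19 without 1 array. That of CD14 turned to 0.03, 0.0078, 0.0129 and 0.008 in the same order, and ran from -0.10 to 0.0839. The cause of these changes was not tested. Dim probes are limited by signal over background, so that folds against background are bounds and 7 HOX genes have no test.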
